A study of Mus musculus with 8 samples.

Results

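The genes of Wnt secretion and of the TCF branch of Wnt signalling were followed in mouse embryonic stem cell (ESC) lines that carry or lack Zfp281, a zinc finger transcription factor of the pluripotency network. The set holds 10 listed genes, which are Porcn, Wls, Tcf7l1, Tcf7l2, Tcf7, Lef1, Axin2, Ctnnb1, Sp5 and Lrp6, and 9 of them were measured among 18193 genes. Tcf7 has no probe set under its name in the probe annotation and was not analysed here. Porcn was put in the set because it stood among the strongly higher genes in the null lines, so the null and wild-type values of these arrays chose it, and those values are given below as a description without a test. The other genes were listed for their place in the pathway, with earlier results of these data known.

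Each of 8 ESC lines gave 1 Affymetrix mouse genome array. Lines 3, 3.2 and 3.3 were wild-type, lines 5 and 3.1 were Zfp281 heterozygous, and lines 7, 3.34 and 3.38 were Zfp281 deficient, called null here. All lines were derived from blastocysts of heterozygous matings and grew without further treatment on feeder cells, primary mouse embryonic fibroblasts, in serum with LIF. The null allele has the gene's exons replaced by a floxed neomycin cassette, which was later removed from an unstated subset of the lines. Each line is a single derivation, so p-values measure the spread between these lines, biological and technical together. The study matches null line 7 with wild-type line 3, and null line 3.38 with wild-type line 3.3, as lines from the same litters, so lines of different genotype are not all independent. Litter is not in the fits below, except where a difference within these 2 pairs is given. Values are log2 values from RMA, a method that normalizes all arrays together, and a detection call (present, marginal or absent) says whether a probe set stood above background on an array.

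Wnt proteins are acylated in the endoplasmic reticulum by Porcn, a membrane-bound acyltransferase, and are carried to the cell surface by Wls. At the receiving cell they engage Frizzled receptors together with Lrp6, which stops the destruction complex from degrading beta-catenin, the product of Ctnnb1, so that it can act with TCF/LEF factors on target genes such as Axin2 and Sp5. In mouse ESCs Tcf7l1 is known mainly as a repressor of pluripotency genes, and beta-catenin relieves that repression.

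The labels and the cell type were checked first. On 2 probe sets Zfp281 itself had log2 values of at least 6.69 in every wild-type and heterozygous line, all called present, and of 2.94 to 5.23 in the null lines. The lower null values were still called present in lines 3.34 and 3.38 on the first probe set and in lines 7 and 3.34, with line 3.38 marginal, on the other. Of 8 ESC defining markers, 7 were called present in every line and Utf1 in none, and for all 8 the null mean was above the wild-type mean (median log2 difference 0.68, 1 at an adjusted p under 0.05 in limma). Of 18 markers of feeder fibroblasts, the null mean was below the wild-type mean for 15, with a median log2 difference of −0.45 and none at an adjusted p under 0.05 in limma. Their summed signal was 1276.6 to 1891.7 in wild-type, 2145.7 to 2699.7 in heterozygous and 985.0 to 1256.1 in null lines, with 10 to 15, 12 to 16 and 10 to 13 of the 18 called present, and Pdgfrb present in no line. The array controls for Gapdh and beta-actin give the log2 value at the 3′ end minus that at the 5′ end, a sign of RNA integrity, which was 4.61 ± 0.34 (SD, n = 3) for wild-type, 4.64 ± 0.22 (SD, n = 2) for heterozygous and 3.30 ± 0.55 (SD, n = 3) for null. The feeder marker signal and the 3′ minus 5′ measure thus differed along with genotype in these arrays. The 3′ minus 5′ measure was 2.68 to 3.71 in the null lines and at least 4.23 in all others. A fit with it as a covariate can therefore hardly tell it apart from genotype. With the 3′ minus 5′ measure as a covariate, no gene had an adjusted p under 0.05 between null and wild-type in limma (0 of 18193, with 462 at an unadjusted p under 0.05), and the log2 differences described below became 1.65 for Porcn, 0.91 for Lef1, −0.42 for Tcf7l1 and −0.12 for Ctnnb1.

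RefSeq promoter windows, from 250 bases before to 50 bases after a start, were at hand for 8 of the 10 genes, Porcn and Lrp6 being the others. The 3 windows shown, of Tcf7l1, Lef1 and Sp5, each hold a string marked as below, and run 5′ to 3′ on the strand of the gene. Windows that hold no such string, such as those of Ctnnb1, Axin2 and Wls, are not shown. Capitals mark either GGGGAGGG, a G-rich string of the kind Zfp281 is known to bind, or the core of a TCF/LEF site, CTTTG followed by 2 bases that are each A or T, on either strand. Tcf7l1 lies on the minus strand, Lef1 and Sp5 on the plus strand, all in build GRCm38.p6.
Tcf7l1, chr6:72788996-72789295: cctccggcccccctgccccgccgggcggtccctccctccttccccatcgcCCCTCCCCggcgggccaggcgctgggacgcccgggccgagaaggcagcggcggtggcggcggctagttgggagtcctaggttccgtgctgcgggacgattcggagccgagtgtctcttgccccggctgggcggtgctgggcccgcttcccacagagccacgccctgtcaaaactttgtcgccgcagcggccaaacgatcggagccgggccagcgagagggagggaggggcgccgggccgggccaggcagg
Lef1, chr3:131110047-131110346: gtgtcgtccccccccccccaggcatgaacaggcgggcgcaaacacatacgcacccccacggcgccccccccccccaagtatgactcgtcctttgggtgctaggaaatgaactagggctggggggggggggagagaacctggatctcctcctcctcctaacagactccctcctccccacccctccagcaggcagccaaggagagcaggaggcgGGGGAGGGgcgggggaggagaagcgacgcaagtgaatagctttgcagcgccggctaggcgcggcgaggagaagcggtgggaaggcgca
Sp5, chr2:70474673-70474972: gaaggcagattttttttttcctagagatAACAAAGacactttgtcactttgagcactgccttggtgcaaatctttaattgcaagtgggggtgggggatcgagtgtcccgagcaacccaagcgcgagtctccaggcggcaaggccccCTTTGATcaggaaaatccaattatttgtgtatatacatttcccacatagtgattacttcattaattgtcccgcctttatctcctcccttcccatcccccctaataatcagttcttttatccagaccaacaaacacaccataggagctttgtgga
GGGGAGGG first occurs at base −200 from the start on the opposite strand in Tcf7l1 and at base −38 on the gene's own strand in Lef1. Sp5, a direct target of beta-catenin, has TCF/LEF strings at bases −222, on the opposite strand, and −104. Over all 14 windows of the 8 genes, 3 held a TCF/LEF string and 3 held GGGGAGGG (the 2 that overlap at Lef1 share the same copy), beside 16.9% and 10.8% of 32851 promoter windows of the same length. These matches describe the letters of the windows and nothing about binding.

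Porcn was the gene of the set that differed most between genotypes. On its single probe set the log2 value in the order of the lines above was 4.97, 4.82 and 5.52 for wild-type, 5.64 and 4.71 for heterozygous and 7.48, 7.29 and 7.51 for null, and later values keep this order. Every null line lay far above every other line, while wild-type and heterozygous lines overlapped. The null mean was 2.32 higher than the wild-type mean on the log2 scale (standard error 0.26), a fold of 5.00, and 2.25 higher than the heterozygous mean (standard error 0.29). Porcn was called present in all 3 null lines, and not in wild-type line 3.2 or heterozygous line 3.1. Between heterozygous and wild-type lines, a comparison that did not choose the gene, the log2 difference was 0.07 (95% interval −0.59 to 0.73, adjusted p = 0.997, limma).

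**Figure D1:**
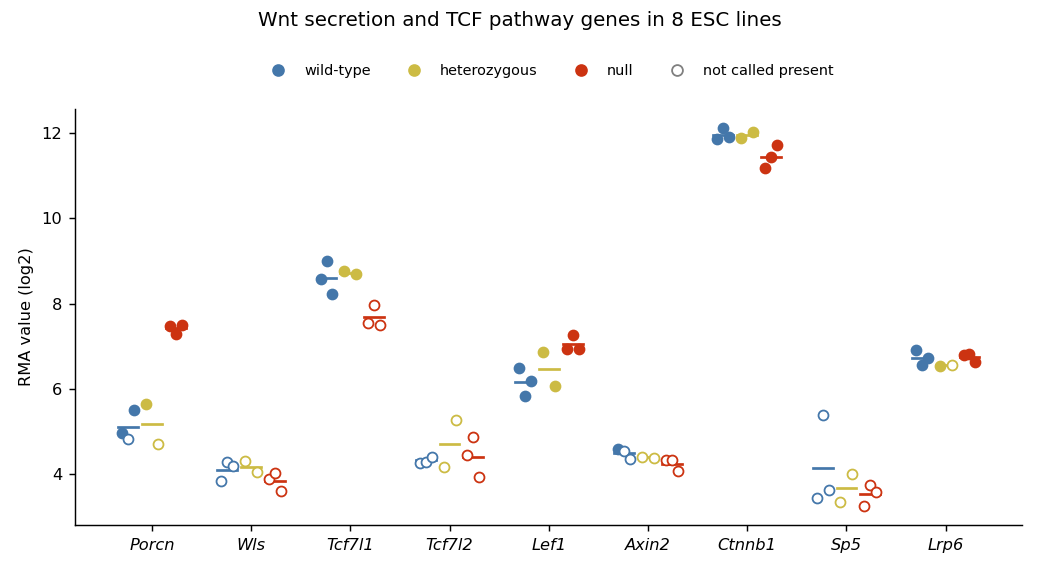
RMA log2 value of the 9 measured genes (x axis) in each ESC line, on the probe set that stands for the gene; filled circles were called present, open circles were not, and short lines are genotype means. Porcn in the 3 null lines sits at 7.29 to 7.51, above all other lines, and Tcf7l1 in the null lines sits at 7.51 to 7.97, below all others.

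Porcn lies on the X chromosome, and its immediate measured neighbours also had higher values in the null lines. Ebp, a sterol isomerase of cholesterol synthesis, was at 4.82, 4.85 and 6.41 in the wild-type lines, at 6.13 and 5.04 in the heterozygous lines and at 7.31, 6.83 and 7.44 in the null lines. Ftsj1, a tRNA methyltransferase, was at 6.97, 6.71 and 7.57 in the wild-type lines, at 7.80 and 7.32 in the heterozygous lines and at 8.22, 7.90 and 8.21 in the null lines. For both genes the 3 null lines lay above all others, and wild-type line 3.3 and heterozygous line 5 were the highest of their genotypes, as they were for Porcn. The null mean was above the wild-type mean by 1.83 for Ebp (standard error 0.45, adjusted p = 0.0882, limma) and by 1.03 for Ftsj1 (standard error 0.23, adjusted p = 0.0742, limma), neither under 0.05. Both adjusted p-values in limma were under 0.05 when the fit was limited to detected genes, used array weights or left out wild-type line 3.3. In every other alternative both were above 0.05, such as 0.245 for Ebp and 0.206 for Ftsj1 without wild-type line 3 (limma). With probe sets averaged Ftsj1 differed by 0.59. Of the 20 measured genes nearest to Porcn, 10 on each side, 7 were detected, 4 had an unadjusted p under 0.05 (beside 16.4% of all genes) and 0 passed in limma. Beyond Ebp and Ftsj1 the log2 differences ran from −0.78 for Dynlt3 to 0.44 for Was. These are also the nearest detected genes beyond Ebp and Ftsj1, and the genes between were not detected. Where the higher values around Porcn end can therefore not be read.

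**Figure D2:**
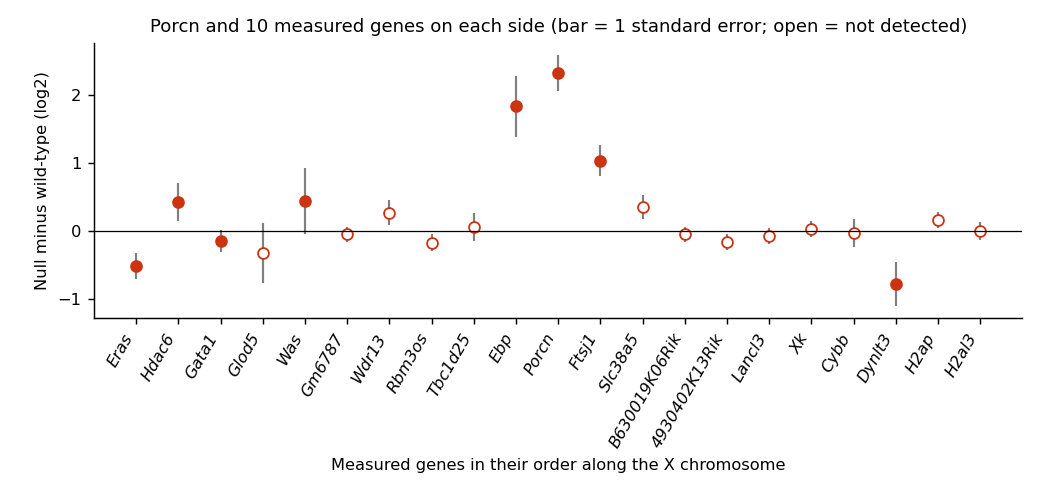
Log2 difference between null and wild-type means (y axis, bars 1 standard error, n = 3 lines each) for Porcn and the 10 measured genes on each side, in their order along the X chromosome; open circles were not detected in every line of any genotype. Ebp, Porcn and Ftsj1 stand side by side at 1.83, 2.32 and 1.03, and the other genes lie between −0.78 and 0.44.

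Since these genes are X-linked, a Y-linked gene was read as well, a choice made after the values had been seen. Eif2s3y, a Y-linked translation factor gene, was at 6.02, 5.67 and 2.38 in the wild-type lines, at 2.67 and 6.13 in the heterozygous lines and at 2.53, 2.95 and 2.50 in the null lines. It was called present in wild-type lines 3 and 3.2 and heterozygous line 3.1, and in none of the null lines. Kdm5d (3.46 to 3.91) and Uty (3.13 to 3.96), also Y-linked, were called absent in all 8 lines. They can therefore show neither such a split nor its absence. Xist, the X inactivation transcript, was called present in all 8. It was at 8.18, 7.99 and 9.83 in the wild-type lines, at 9.15 and 8.09 in the heterozygous lines and at 7.90, 7.45 and 8.94 in the null lines. The 5 lines without a present call for Eif2s3y include the wild-type and the heterozygous line in which Porcn, Ebp, Ftsj1 and Xist were highest. They also include null lines 7 and 3.34, the lowest for Xist. Among those 5, Porcn was at 5.52 in wild-type line 3.3, 5.64 in heterozygous line 5 and at least 7.29 in the null lines. With the Eif2s3y call as a covariate, the log2 difference between null and wild-type was 1.82 for Porcn (standard error 0.15), 0.92 for Ebp (standard error 0.23) and 0.61 for Ftsj1 (standard error 0.17). With the 3′ minus 5′ measure instead, Ebp differed by 0.41 (standard error 0.73) and Ftsj1 by 0.31 (standard error 0.38). Within the litter pairs, null line 7 exceeded wild-type line 3 by 2.51 for Porcn, 2.49 for Ebp and 1.25 for Ftsj1. Null line 3.38 exceeded wild-type line 3.3, where neither has a present call for Eif2s3y, by 1.99 for Porcn, 1.03 for Ebp and 0.64 for Ftsj1. The 282 detected X-linked genes had a median log2 difference of −0.07 between null and wild-type, beside −0.02 for all detected genes. Of the 282, 9 had an adjusted p under 0.05 in limma, Porcn among them, beside 1.13% of all genes, detected or not. The labels do not give the sex of the lines, and its part in these differences was not tested.

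The genes whose profile over the 8 lines was most like that of Porcn, by the root mean square difference of their mean-centred log2 values, were Lap3 (0.34), Mylpf (0.36), Lsm2 (0.39), Zmynd19 (0.39) and Rps4l (0.40). Within the set the closest was Lef1 at 0.80, at rank 450 among all genes.

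Wls, which carries acylated Wnts through the secretory route, was not above background. None of its 4 probe sets was called present in any line, and the one with the highest mean lay between 3.60 and 4.31 in all 8 lines, so no fold is given.

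Lrp6, the co-receptor, had the flattest profile of the detected genes. It gave 6.91, 6.57 and 6.72 for wild-type, 6.55 and 6.57 for heterozygous and 6.81, 6.83 and 6.64 for null. Null and wild-type lines overlapped, and both heterozygous lines lay at or below the lowest wild-type line, at unrounded values that do not overlap. The null mean differed from the wild-type mean by 0.02 (standard error 0.12), and the heterozygous mean by −0.17 (95% interval −0.47 to 0.13, adjusted p = 0.997, limma).

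Ctnnb1, the beta-catenin gene, gave opposite differences on its probe sets. On the brightest it was at 11.86, 12.12 and 11.90 in the wild-type lines, at 11.89 and 12.02 in the heterozygous lines and at 11.18, 11.43 and 11.73 in the null lines. There all null lines lay below the others, with a null mean 0.51 below the wild-type mean, a log2 difference of −0.51 (standard error 0.15). On another it was at 5.64, 5.46 and 6.75 in the wild-type lines, at 5.11 and 5.70 in the heterozygous lines and at 7.35, 6.94 and 7.34 in the null lines. Here the null lines lay above all others, with a null mean 1.26 above the wild-type mean. The probe set was called present in all 3 null lines and, of the rest, in wild-type line 3.3 alone. No fold over wild-type is given, since 1 of 3 wild-type lines measured it. The fold over heterozygous lines was at least 3.48 with their absent values as upper limits, the spread between lines left out. The remaining probe set was called present in no line. Averaged over its probe sets, Ctnnb1 was 0.46 higher in null than in wild-type lines, and its sign thus differed between these readings, of which the dimmer rest on absent calls outside the null lines. The sources used here do not say which stretch of the transcript each probe set covers. The 3′ minus 5′ measure of the array controls was lower in the same null lines, and its part was not tested.

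**Figure D3:**
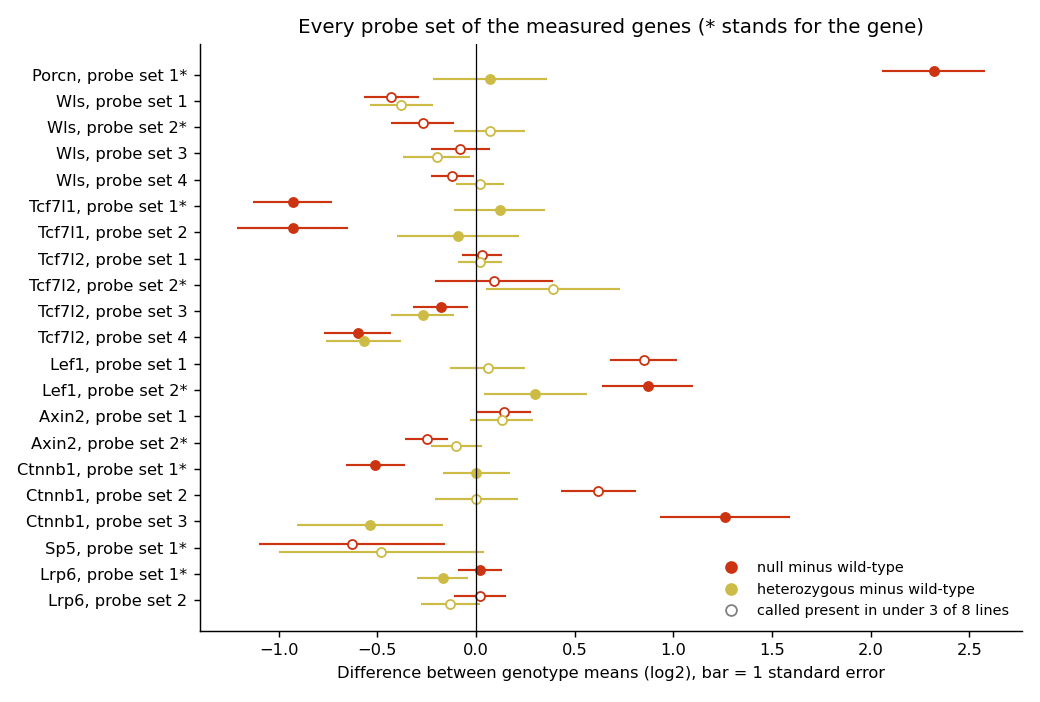
Log2 difference from the wild-type mean (x axis, bars 1 standard error) on every probe set of the 9 genes (y axis), for null lines (n = 3) and heterozygous lines (n = 2); an asterisk marks the probe set that stands for the gene and open circles were called present in fewer than 3 of 8 lines. Both Tcf7l1 probe sets lie at −0.93 in null lines, while those of Ctnnb1 range from −0.51 to 1.26.

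Tcf7l1, the main TCF repressor of ESCs, had lower values in the null lines on both of its probe sets. On the brighter wild-type gave 8.58, 9.01 and 8.23, heterozygous 8.76 and 8.70 and null 7.56, 7.97 and 7.51. All 3 null lines lay below all others and were called absent. With their values taken as upper limits, wild-type over null was at least 1.91-fold and heterozygous over null at least 2.07-fold. These limits concern the absent calls only and leave out the spread between lines (standard error of the log2 difference from wild-type 0.21). On the other, called present in every line, it was at 7.25, 7.46 and 7.15 in the wild-type lines, at 7.17 and 7.21 in the heterozygous lines and at 6.03, 7.10 and 5.94 in the null lines. The null lines again lay below all others, null line 3.34 only just, and the log2 difference from wild-type was −0.93 as on the brighter probe set. Heterozygous and wild-type lines differed by 0.12 on the brighter probe set (95% interval −0.41 to 0.64, adjusted p = 0.997, limma).

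Lef1, a TCF/LEF factor that acts mostly as an activator with beta-catenin, had higher values in the null lines. On its brighter probe set, called present in every line, it was at 6.49, 5.84 and 6.20 in the wild-type lines, at 6.88 and 6.08 in the heterozygous lines and at 6.94, 7.26 and 6.95 in the null lines. The null lines lay above all others, though above heterozygous line 5 by little. The null mean exceeded the wild-type mean by 0.87 (standard error 0.23) and the heterozygous mean by 0.57, and heterozygous exceeded wild-type by 0.30 (95% interval −0.30 to 0.90, adjusted p = 0.997, limma). On the dimmer probe set Lef1 was called present in null lines 7 and 3.34 and in no other line. It was at 4.01 to 4.48 in null and 3.15 to 3.61 in wild-type lines, a fold of means of 1.81 that takes absent values as measured. Within the litter pairs, on the brighter probe sets, Lef1 differed between null and wild-type by 0.45 and 0.74, Tcf7l1 by −1.02 and −0.73 and Ctnnb1 by −0.68 and −0.16.

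Tcf7l2, another TCF factor, was near background. The probe set with its highest mean was called absent in all lines, at 4.17 to 5.27. One dimmer probe set was called present in all lines but null line 7, at 3.96, 3.76 and 3.57 in the wild-type lines, at 3.49 and 2.88 in the heterozygous lines and at 3.19, 3.07 and 3.22 in the null lines. On it both the null and the heterozygous lines lay below every wild-type line, with log2 differences of −0.60 and −0.57.

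The target genes of the set lay at or near background. Axin2, the feedback inhibitor that is a common readout of the pathway, was called present in wild-type line 3 alone, at 4.59, and lay between 4.08 and 4.55 in the other lines. Sp5 was called absent in every line, at 3.26 to 5.39, the highest in wild-type line 3.2. No fold is given for either.

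As background, 1 of the 9 measured genes (Porcn, chosen on this contrast) is among the 1.13% of all genes with an adjusted p under 0.05 between null and wild-type lines in limma. In 5 of 9 the null and wild-type lines did not overlap, beside 22.4% of all genes, namely Porcn, Lef1, Tcf7l1, Ctnnb1 and Axin2. That contrast chose Porcn, and nothing is read from these counts. Between heterozygous and wild-type lines 0 of 9 passed in limma (0% of all genes), 0 had an unadjusted p under 0.05 (3.85% of all genes) and 1, Lrp6, did not overlap (17.3% of all genes). Between null and heterozygous lines 0 of 9 passed in limma (0% of all genes), 3 had an unadjusted p under 0.05 (13.8%) and 7 did not overlap (27.9%). The comparisons share their wild-type, heterozygous or null lines.

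The rest of the pathway was taken from a list of 127 other genes in 10 roles, of which 123 were measured and 50 detected. Between null and wild-type lines 1 rose and 0 fell at an adjusted p under 0.05 in limma, beside 1.13% of all genes, and 24 of 123 had an unadjusted p under 0.05, beside 16.4% of all genes. The median log2 difference was −0.03 over the list and −0.01 over all genes. Between heterozygous and wild-type lines 0 passed in limma and 9 had an unadjusted p under 0.05, beside 3.85% of all genes, and between null and heterozygous lines the counts were 0 and 19, the latter beside 13.8% of all genes.

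**Figure D4:**
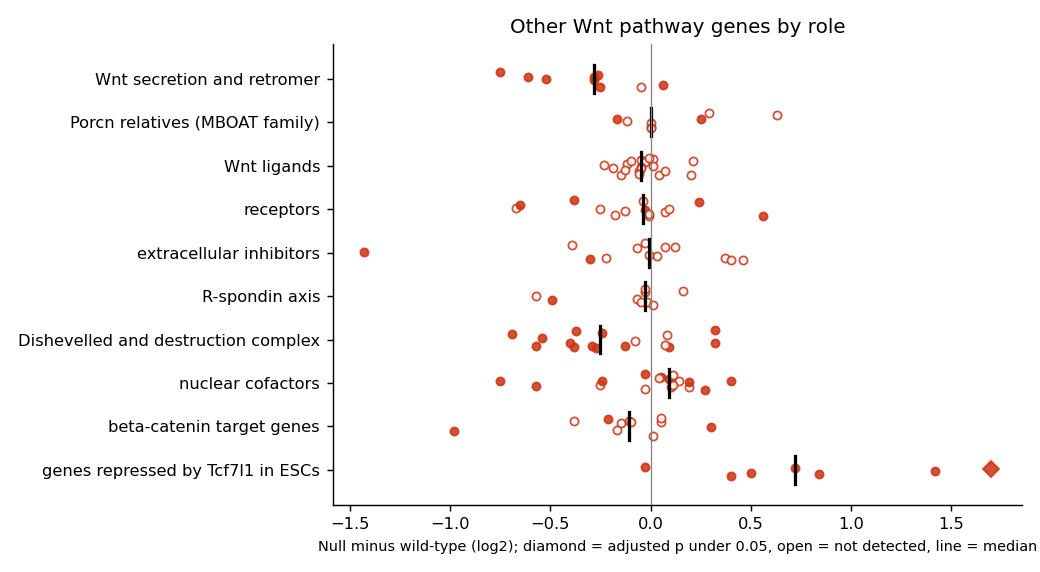
Log2 difference between null and wild-type means (x axis) for the 123 other pathway genes, grouped by role (y axis); black lines are group medians, open circles were not detected and the diamond is the gene at an adjusted p under 0.05. The genes repressed by Tcf7l1 lie furthest to the right with a median of 0.72, and the Wnt ligands, none detected, lie around −0.05.

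The gene that passed was Nr0b1 (Dax1), a nuclear receptor of the pluripotency network and one of 7 listed genes that Tcf7l1 is known to repress in ESCs. It was at 7.08, 6.69 and 7.06 in the wild-type lines, at 8.54 and 7.52 in the heterozygous lines and at 8.81, 8.71 and 8.42 in the null lines. Wild-type lines were lowest without overlap, and heterozygous line 5 reached the null range. Neither heterozygous line 5 nor any null line had a present call for Eif2s3y, and nor had wild-type line 3.3, at 7.06. The part of the sex of the lines in the values of Nr0b1 was not tested. The log2 difference between null and wild-type was 1.70 (standard error 0.25, adjusted p = 0.0370, limma). Heterozygous against wild-type gave 1.09 (standard error 0.28, adjusted p = 0.997, unadjusted p = 0.00439, limma). With the Eif2s3y call as a covariate the null difference was 1.34 (standard error 0.25, adjusted p = 0.202, limma), and its call was also lost without null line 7, null line 3.34, wild-type line 3 or wild-type line 3.2.

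All 7 genes repressed by Tcf7l1 were detected, with a median log2 difference between null and wild-type of 0.72, beside −0.01 over all genes. The orphan receptor Nr5a2 differed by 1.42 (adjusted p = 0.0672, limma), Tfcp2l1 by 0.84 (adjusted p = 0.0609, limma), Klf2 by 0.72 and Nanog by 0.50, none of them under 0.05 after adjustment. Tbx3 differed by 0.40 and Esrrb, a core pluripotency receptor, by −0.03. With probe sets averaged Nr5a2 differed by 0.58, Tfcp2l1 by 0.29, Tbx3 by 0.16 and Esrrb by 0.38, while Nr0b1, Klf2 and Nanog were unchanged. Between heterozygous and wild-type lines all 7 had a higher mean, with a median of 0.52 beside 0.01 over all genes, and 4 had an unadjusted p under 0.05, beside 3.85% of all genes. Several of these genes mark ESCs in their own right. The ESC defining markers (median 0.68, 1 of 8 called) and the feeder markers (median −0.45, 0 of 18 called) differed between the same lines in the values given above, and their part was not tested. With the 3′ minus 5′ measure as a covariate Klf2 differed by −0.30 (standard error 0.32) and Tbx3 by −0.16 (standard error 0.73). With the Eif2s3y call Klf2 differed by 0.30 (standard error 0.22) and Tbx3 by −0.11 (standard error 0.37).

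The machinery of Wnt secretion other than Porcn had lower means in the null lines for 8 of 9 measured genes, with a median of −0.28, and 0 passed in limma. Tmed10, a cargo receptor of the early secretory pathway, was at 7.82, 8.42 and 7.73 in the wild-type lines, at 7.93 and 8.44 in the heterozygous lines and at 7.21, 7.31 and 7.21 in the null lines. The null lines lay below all others, with a log2 difference from wild-type of −0.75 (adjusted p = 0.108, limma). That difference was −0.45 (standard error 0.20) with the Eif2s3y call and −0.39 (standard error 0.40) with the 3′ minus 5′ measure as a covariate. Of the acyltransferase relatives of Porcn (MBOAT family), 8 were measured and 2 detected, with a median of 0.00. The detected one with the largest difference was Lpcat3 at 0.25 (adjusted p = 0.584, limma).

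None of the 19 Wnt ligand genes was detected. Of 14 receptors 5 were detected, with Fzd7 the furthest from 0 among them at −0.65 (adjusted p = 0.248, limma), at 7.25 and 7.10 in null lines 7 and 3.38 and 8.15 in null line 3.34, within the wild-type range of 8.05 to 8.26. Without null line 3.34 the difference of Fzd7 was −0.98 (adjusted p = 0.0381, limma), and with its probe sets averaged it was −0.28. Of 9 genes of the R-spondin axis 1 was detected, the receptor Lgr4, at −0.49 (adjusted p = 0.265, limma), or −0.31 without wild-type line 3. Lgr4 differed by −0.22 with its probe sets averaged. Sfrp2, a secreted Wnt antagonist and 1 of 2 detected extracellular inhibitors, was at 6.40, 6.74 and 5.76 in the wild-type lines, at 5.75 and 6.86 in the heterozygous lines and at 4.72, 4.74 and 5.16 in the null lines. The null lines lay below all others, with a log2 difference from wild-type of −1.43 (standard error 0.33, adjusted p = 0.0763, limma). That difference was −0.80 (standard error 0.20) with the Eif2s3y call and −0.58 (standard error 0.59) with the 3′ minus 5′ measure as a covariate. Feeder fibroblast markers were also lowest in the null lines, and in bulk RNA fewer cells of a type and less RNA per cell cannot be told apart.

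Of 16 Dishevelled and destruction complex genes 13 were detected, with a median of −0.25, 11 lower means and 0 calls in limma. Fbxw11, a ubiquitin ligase subunit that recognizes phosphorylated beta-catenin, was at 9.46 to 10.16 in wild-type and 9.01 to 9.29 in null lines, a log2 difference of −0.69 (adjusted p = 0.126, limma). That difference was −0.34 (standard error 0.16) with the Eif2s3y call and 0.00 (standard error 0.30) with the 3′ minus 5′ measure as a covariate. Fbxw11 differed by −0.19 with its probe sets averaged. Among 17 nuclear cofactors the median was 0.09, and Bcl9, a beta-catenin coactivator, differed by −0.75 (adjusted p = 0.204, limma), or by −0.44 without wild-type line 3.2. Bcl9 differed by −0.38 with its probe sets averaged. Among 11 other beta-catenin target genes 3 were detected, the median was −0.11 and 0 had an unadjusted p under 0.05. The endoderm factor Sox17 was the furthest from 0 of these, at −0.98 (adjusted p = 0.385, limma), with values of 3.59 to 5.14 in wild-type and 3.09 to 3.92 in null lines that overlapped. Within the litter pairs it was lower in null line 7 than in wild-type line 3 by a log2 difference of −2.04, and in null line 3.38 than in wild-type line 3.3 by −1.15. Sox17 was called absent in null line 7, so the first of these differences takes an absent value as measured. Wild-type line 3.2, at 3.59, made the overlap, and without it the difference was −1.48 (adjusted p = 0.189, limma). With probe sets averaged over all lines the difference of Sox17 was −0.52. By qPCR the study reports the other direction, with Sox17 derepressed in null lines, and the reason for this contrast was not tested.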

How the data were processed

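The authors hybridised RNA from 8 ESC lines to Affymetrix mouse genome arrays and deposited RMA log2 values. For each array they also deposited a signal intensity, and with it the detection p-value and call of every probe set, with a scaling not given in the sources used here. RMA and limma are named in the submitters' processing notes. Array data carry no read depth, and the number of lines limits the precision.

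Of 45101 probe sets, 64 controls were left out. The platform annotation gives 1 gene for 34945, several for 932 and none listed for 9160. Each of 18193 genes was read from its brightest probe set on average. A gene was taken as detected (7306 genes) if it was called present in every line of at least 1 genotype. Gpr177 in older annotation is Wls.

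Genotypes were compared with limma 3.58.1 in R 4.3.3 (lmFit, eBayes) over all genes and lines, with Benjamini-Hochberg adjustment, and the fit was tested on simulated data. A bound was computed against the higher of a probe set's own value and the lowest value called present on each array. It takes no account of the spread between lines. Python 3.11.15, pandas 2.3.3, numpy 2.4.6 and matplotlib 3.10.9 were also used. The genes, lists, named genes and tests were chosen with earlier results of these data known. All 10 genes are named, as are in each role any gene at an adjusted p under 0.05 and the detected gene furthest from 0 between null and wild-type, the immediate neighbours of Porcn and the 5 genes most like it. Further genes of the Tcf7l1-repressed role, Eif2s3y, Dynlt3 and Was were named after their values were seen.

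Alternatives were probe set averages, detected genes only, quantile normalization, the signal values (log2 of the intensity plus 1), only the genotypes compared in the fit, array weights, a covariate for the 3′ minus 5′ measure, each line left out and, both chosen after seeing the data, the Eif2s3y call as a covariate and a fit of only the 4 lines that the study pairs by litter, with litter as a block. The gene order and the promoters came from RefSeq tables of GRCm38.p6, used for names, neighbours and the printed windows only, since no build goes with the arrays. Tcf7, with no probe set under its name, was left out.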

Additional observations from a re-analysis of the deposited data

How the results depend on the processing

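No direction of a called difference turned. Between null and wild-type lines, 2 genes of the set (Porcn and Tcf7l1) were called with detected genes only and 2, the same genes, with array weights, 0 with the signal values and 0 with the 3′ minus 5′ covariate, and 0 to 2 with a line left out. Over all genes the signal values and that covariate gave 0 calls. The difference of Porcn, which chose it, lay between 1.65 and 2.55 on the log2 scale over all alternatives. Between null and heterozygous lines the set had 1 call with probe sets averaged, 1 with detected genes only, 1 with only the 2 genotypes in the fit, 1 (Porcn) with the Eif2s3y covariate and 0 to 2 with a line left out. Of the pathway list, 4 genes were called between null and wild-type with detected genes only (Nr0b1, Nr5a2, Sfrp2 and Tfcp2l1) and 5 with array weights. The signal values, the 3′ minus 5′ covariate and the Eif2s3y covariate each gave 0. Within the litter pairs, with litter as a block, 2 list genes were called (Nr0b1 and Nr5a2). With a line left out 0 to 2 list genes were called between null and wild-type. They included Fzd7 without null line 3.34, Apc and Nr0b1 without null line 3.38 and Nr5a2 without wild-type line 3.2. Nr0b1 was also called without wild-type line 3.3 and without either heterozygous line. Between null and heterozygous lines 0 to 1 list genes were called with a line left out, the call being Tmed10 without wild-type line 3.2. Of the neighbours of Porcn, 2 were called with detected genes only, 2 with array weights and 0 to 2 with a line left out. No alternative with these lines in the fit called a gene of the set or the list between heterozygous and wild-type lines. Ctnnb1 changed sign between null and wild-type with probe sets averaged. With 1 heterozygous line left out, the spread of the remaining one is taken from the wild-type and null lines. Why counts moved was not tested. With 2 or 3 lines a genotype, differences within the printed intervals could not be resolved, and 73 of 123 list genes were not detected.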
